A study of Mus musculus with 6 samples.

Results

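Collagen chain genes were examined in 6 mouse pancreatic ductal adenocarcinoma (PDAC) cell lines by RNA sequencing of 1 library each. The lines are KPC142, KPC180, KPC469, KPC490, KPC630 and KPC850. Members were all genes whose symbol reads Col, a number, the letter a and a number, with nothing after it. The rule found 44 genes among the 56953 of the table: 11 fibrillar, 9 basement membrane, 9 network, 4 transmembrane and 9 fibril-associated chains, and 2 others (Col26a1 and Col28a1). The cells are labelled as pancreatic adenocarcinoma cells from KPC mice. KPC names a genetically engineered mouse model of pancreatic cancer. The labels spell out no allele and do not say whether a line is 1 clone. No treatment is named. The study asks which genes mark the lines whose tumours draw few or many CD8+ T cells, and the labels give no class to any line, so the lines stand side by side and no groups are compared.

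Collagens are secreted or membrane proteins in which 3 chains wind around each other. Each chain repeats a triplet of glycine followed by any 2 residues, since only glycine fits inside the helix. Fibrillar collagens form the banded fibrils of stroma, type IV forms the sheet of the basement membrane under epithelia, type VI forms beaded filaments, and the fibril-associated types decorate fibrils. In pancreatic cancer the fibrillar collagens of the dense stroma are known to come mainly from fibroblasts and stellate cells, while epithelial cells make basement membrane chains.

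The fibrillar chains stand apart in the coding sequences by their longest run of triplets, while other classes overlap. Triplets were counted in the longest open reading frame of each gene (GENCODE vM21 transcripts), taking runs of 5 or more. The longest uninterrupted run had 337 to 344 triplets in 9 fibrillar chains and 216 and 217 in Col24a1 and Col27a1. Type IV chains had 425 to 444 triplets in all, broken into 22 to 27 runs of which none exceeded 66 triplets. Col18a1 had 169 triplets in 14 runs, near the 167 in 14 runs of the transmembrane chain Col17a1. Col6a1 had 109, with a longest run of 87. Coding stretches of 24 codons are given for a chain of each main class expressed here, with every glycine codon in capitals. The stretches of Col5a1 (codons 559 to 582) and Col6a1 (256 to 279) open their longest run, and that of Col4a1 (151 to 174) shows its longest run ending in an interruption.
Col5a1: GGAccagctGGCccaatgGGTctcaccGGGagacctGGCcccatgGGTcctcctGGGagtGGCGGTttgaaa
Col6a1: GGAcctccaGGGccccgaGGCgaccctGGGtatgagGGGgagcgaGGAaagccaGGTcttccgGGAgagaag
Col4a1: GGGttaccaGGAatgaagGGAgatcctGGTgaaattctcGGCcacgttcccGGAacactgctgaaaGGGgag
In Col4a1 the spacing of glycine codons is lost after the fourth triplet shown, whereas Col5a1 and Col6a1 keep a glycine codon at the head of every triplet; in Col5a1 a further glycine codon closes the seventh.

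Promoter windows of 300 bases (250 before and 50 after the start, RefSeq, build GRCm38.p6) matched 35 of the 44 members. The windows of Col4a1 with Col4a2 and of Col6a1 with Col6a2 are shown. Both genes of each pair were lowest in KPC490, though Col6a1 and Col6a2 differed in their highest line. Col4a3, highest in KPC469 as Col4a4 was, had no window. Col4a1 (chr8:11312777-11313076, minus strand) and Col4a2 (chr8:11312555-11312854, plus strand) lie head to head with starts 21 bases apart, so that their windows share 78 bases. Col6a1 (chr10:76725995-76726294) and Col6a2 (chr10:76623355-76623654, the first of 2 windows listed) lie in tandem on the minus strand with starts 102640 bases apart. Capitals mark 4 motifs searched on both strands. They are the TATA box as TATAAA, the CCAAT box as CCAAT, the GC box as GGGCGG and the AP-1 site as TGANTCA.
Col4a1 promoter: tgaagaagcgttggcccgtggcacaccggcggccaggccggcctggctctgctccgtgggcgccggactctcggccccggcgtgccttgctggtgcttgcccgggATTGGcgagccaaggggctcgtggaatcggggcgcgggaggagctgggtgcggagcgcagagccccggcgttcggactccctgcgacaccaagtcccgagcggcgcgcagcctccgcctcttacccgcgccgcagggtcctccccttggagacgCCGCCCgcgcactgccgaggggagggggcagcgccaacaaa
Col4a2 promoter: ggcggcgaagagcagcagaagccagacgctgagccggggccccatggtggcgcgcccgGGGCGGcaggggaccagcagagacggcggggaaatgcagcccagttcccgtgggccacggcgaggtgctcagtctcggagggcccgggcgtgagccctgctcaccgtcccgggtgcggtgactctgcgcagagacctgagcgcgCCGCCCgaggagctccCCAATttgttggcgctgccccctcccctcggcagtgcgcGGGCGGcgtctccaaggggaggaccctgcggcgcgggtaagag
Col6a1 promoter: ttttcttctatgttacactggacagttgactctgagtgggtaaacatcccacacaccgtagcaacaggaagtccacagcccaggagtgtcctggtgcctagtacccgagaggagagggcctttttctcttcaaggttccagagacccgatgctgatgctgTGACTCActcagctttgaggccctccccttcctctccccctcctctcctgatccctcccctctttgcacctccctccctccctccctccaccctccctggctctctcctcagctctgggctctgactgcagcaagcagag
Col6a2 promoter: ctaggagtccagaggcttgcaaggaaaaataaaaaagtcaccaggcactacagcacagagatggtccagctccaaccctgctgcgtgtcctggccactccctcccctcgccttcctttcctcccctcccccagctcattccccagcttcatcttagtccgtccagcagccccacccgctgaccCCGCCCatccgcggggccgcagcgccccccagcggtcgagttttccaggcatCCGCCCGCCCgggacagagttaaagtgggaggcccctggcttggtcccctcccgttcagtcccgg
None of these windows held TATAAA, which was found in 13.6% of all 32851 windows. Both type IV windows held CCAAT (37.4% of all windows), and they also held GGGCGG (35.7%), as did Col6a2. The Col6a1 window held neither, but had TGANTCA (7.81%), and it was the only 1 of the 38 member windows that did. Such matches describe letters and not binding.

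Library totals ran from 16471558 to 18701274 expected counts, of which 15179 to 31190 fell on collagen chains. Values are in CPM, the usual scaling of counts to a common library size, on totals adjusted by the trimmed mean of M values (TMM). A single count was worth 0.0532 to 0.0607 CPM, and a count of 0 allowed up to 3 counts, or 0.160 to 0.182 CPM. KPC469 stands apart from the other lines: a chi-square per degree of freedom of the counts over genes was 125 to 149.6 between it and each other line and 69.8 to 102 between the others, so the counts of genes past a fold are also given without it. Every ratio below has a 95% interval from the exact conditional binomial distribution of the counts of 2 libraries, and a share has an exact Clopper-Pearson interval. Both cover counting error only, since no line has a replicate. Ordering the lines by CPM gave 80 pairs of neighbouring lines over the 16 genes named below, and in 35 of these the interval of the ratio included 1.

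The basement membrane chains made up most collagen RNA in every line. Summed over all 44 genes, collagen RNA stood at 1699 CPM in KPC469, 1585 in KPC630, 1493 in KPC180, 1429 in KPC850, 1012 in KPC142 and 882 in KPC490. The highest and the lowest line differed 1.93-fold (1.89 to 1.97). Basement membrane chains took between 81.3% of collagen counts in KPC180 (80.8 to 81.8) and 95.1% in KPC490 (94.8 to 95.5). Col4a1, Col4a2 and Col18a1 alone took 76.8% (76.3 to 77.3) in KPC469 and 90.9% (90.4 to 91.4) in KPC490. Per kilobase of the longest transcript the mean level over the lines was 79.0 CPM for Col4a1, 52.0 for Col4a2 and 49.2 for Col18a1. The next levels per kilobase were 12.3 for Col6a1, 6.36 for Col5a1, 4.60 for Col4a5, 3.66 for Col27a1, 2.99 for Col6a2, 2.08 for Col8a1 and 1.50 for Col7a1. The other 6 genes with a mean of at least 1 CPM had 0.140 to 0.476 per kilobase. With the median transcript length in place of the longest, the 3 leading genes were the same, at 807, 364 and 57.5 CPM per kilobase. The order below them changed: Col7a1 stood next at 20.6, above Col6a1 at 20.1, and Col1a1 moved from 0.183 to 2.54. Some median lengths were too short to hold the open reading frame, among them 0.647 kb for Col4a1, 0.921 for Col4a2, 4.79 for Col18a1, 0.674 for Col7a1 and 0.428 for Col1a1. Their frames had 1669, 1707, 1774, 2944 and 1453 codons. The levels of the 3 leading genes by median length and the changed order thus rest in part on transcripts that lack coding sequence.

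The smaller classes moved far more between lines than the total did. Fibrillar chains summed to 181 CPM in KPC180, 130.1 in KPC469 and 115 in KPC630, against 31.5 in KPC490, 30.0 in KPC142 and 16.1 in KPC850, an 11.3-fold difference (9.95 to 12.8). KPC180, KPC469 and KPC630 thus all lay above the 3 other lines for this class. Network chains stood at 69.3 to 112 CPM in 5 lines and at 8.48 in KPC490, with 13.2-fold between KPC469 and KPC490 (11.2 to 15.8). Fibril-associated chains ran from 1.05 CPM in KPC850 to 27.1 in KPC469, 25.8-fold (16.2 to 43.9), and without KPC469 KPC630 was highest, 11.2-fold above KPC850 (6.93 to 19.3). The 4 transmembrane chains together reached 0.381 CPM at most. The basement membrane sum itself differed 1.70-fold (1.67 to 1.74).

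**Figure D1:**
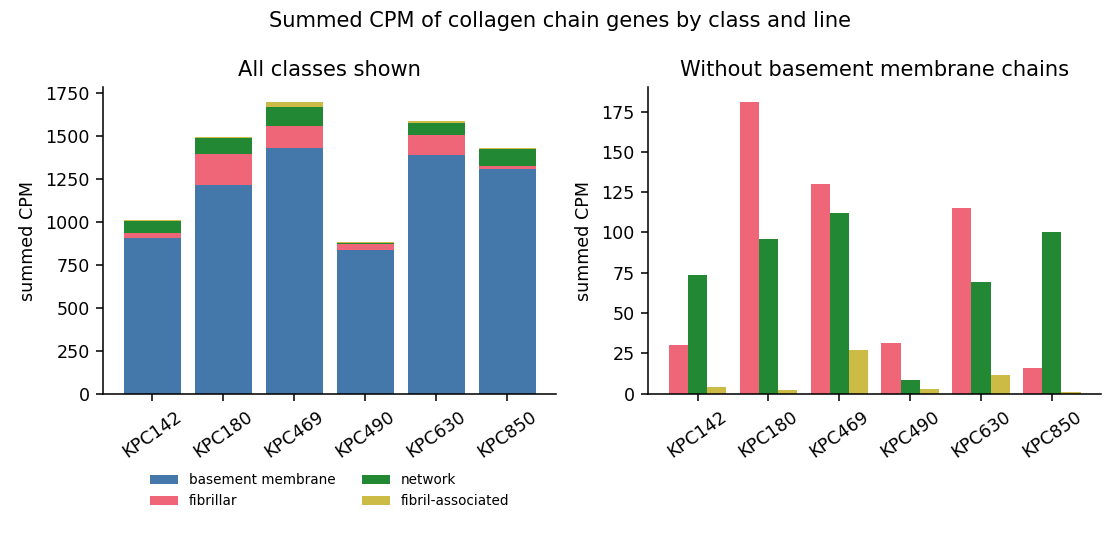
Summed CPM of collagen chain genes by class (vertical axes) in each of the 6 lines, stacked on the left and, on the right, side by side without the basement membrane chains and on a smaller scale. Transmembrane chains and the 2 others, at 0.381 CPM or less, are not drawn; the basement membrane sum runs from 839 CPM in KPC490 to 1430 in KPC469, while the fibrillar sum is 181 CPM in KPC180 and 16.1 in KPC850.

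Most members were barely expressed. Of the 44 genes, 16 had a mean of at least 1 CPM over the 6 lines: 7 of 9 basement membrane, 3 of 11 fibrillar, 3 of 9 network, 3 of 9 fibril-associated, 0 of 4 transmembrane and 0 of the 2 others. In 19 of the remaining 28 no library had more than 3 counts, and 3 of those (Col6a5, Col9a1 and Col19a1) had 0 counts everywhere. The other 9 reached 1.58 CPM at most. The genes of stromal fibrils were among the low ones: Col1a1, the main chain of type I collagen, had 0.232 to 2.66 CPM, Col1a2 at most 3 counts and Col3a1 at most 5 counts.

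The members that were expressed differed widely between lines. Of the 16 genes, 13 had a highest line at least 4 times the lowest (on log2 CPM with a prior count of 2), beside 20.7% of all 12632 genes at that level. The median range was 3.84 log2 units for the 16 genes and 1.02 for all genes. At 2-fold the count was 16 of 16 (51.6% of all genes), and at 8-fold 12 of 16 (12.2%). The 3 genes below 4-fold were Col4a1, Col4a2 and Col18a1, the most abundant members. A filter on the mean favours genes that are high in 1 line: Col1a1, Col4a3, Col4a4 and Col16a1 passed it through their highest line only. Requiring a mean of 1 CPM over the 5 other lines left 9 of 12 (18.5% of all genes), at least 10 CPM in a line gave 8 of 11 (15.4%), and edgeR's filterByExpr gave 7 of 10 (13.2%). Without KPC469 the count was 9 of 13, beside 16.5% of all genes. These counts describe the 6 libraries and are not tests.

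**Figure D2:**
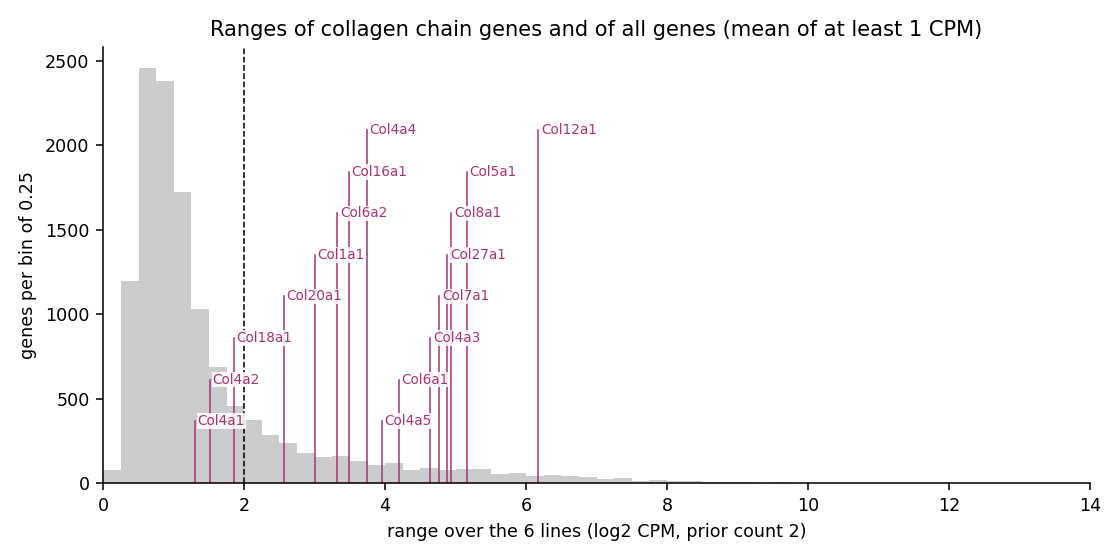
Range over the 6 lines (horizontal axis, log2 CPM units) of all 12632 genes with a mean of at least 1 CPM, as a histogram with the number of genes per bin on the vertical axis. Labelled lines mark the 16 collagen chain genes at their range (line heights only separate the labels), and the dashed line marks 4-fold; 13 of the 16 lie to its right, from Col20a1 at 2.56 to Col12a1 at 6.17.

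Members also differed in which line was highest. KPC469 was the highest line for 9 of the 16 genes, a place it held for 21.4% of all genes. Among the 9, Col4a3 and Col4a4 had reached a mean of 1 CPM through KPC469 only, so their place is in part set by the filter. For Col4a2 and Col6a2, also among the 9, KPC469 did not differ from the next line beyond counting error. KPC490 was the highest for 0 of the 16, beside 15.0% of all genes. In 6 of the 16 (Col1a1, Col5a1, Col4a1, Col4a2, Col8a1 and Col12a1) KPC469 and KPC630 were the pair of highest lines, beside 6.12% of all genes; these counts were chosen after the values were seen. A single line stood at least 4-fold above the next for 6 genes (1.88% of all genes), of which Col4a3, Col4a4 and Col16a1 had reached a mean of 1 CPM through that line only. Requiring that mean of the 5 other lines left 3 of 12, Col27a1, Col4a5 and Col12a1 (0.919% of all genes). Without KPC469 the count was 3 of 13, Col27a1, Col12a1 and Col16a1 (1.57%). The lowest line stood at least 4-fold below the next for 2 genes, Col6a1 and Col6a2 (2.89%), also without KPC469 (2.92%). KPC142 and KPC490 were the closest pair of lines over the 16 genes, with a median absolute difference of 0.550 log2 units, and KPC469 and KPC490 the farthest, at 2.97.

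**Figure D3:**
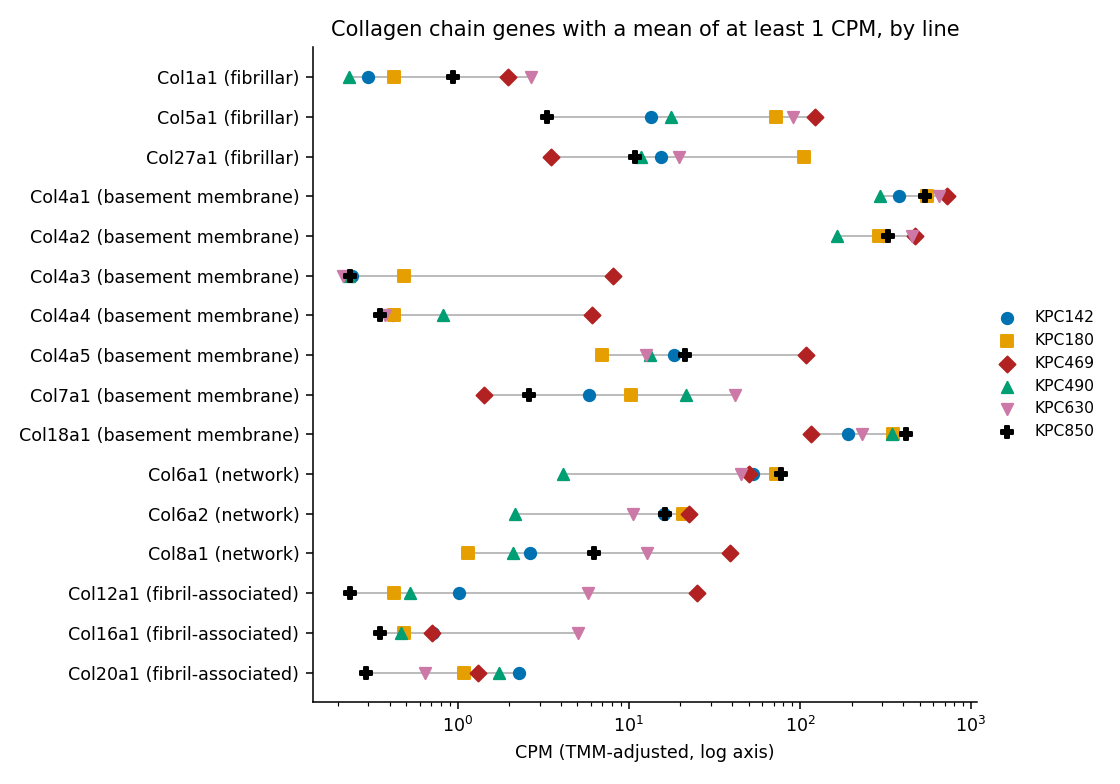
CPM (horizontal log axis) of the 16 collagen chain genes with a mean of at least 1 CPM, 1 row per gene with its class, 1 symbol per line; the grey bar spans the lowest to the highest line. Col4a1 and Col4a2 lie close together at the right, KPC490 lies alone at the left for Col6a1 and Col6a2, and KPC469 lies alone at the right for Col4a3, Col4a4 and Col4a5.

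Among basement membrane chains, Col4a1 and Col4a2 encode the chains of the ubiquitous type IV trimer, which has 2 copies of the first and 1 of the second. Col4a1 stood at 721 CPM in KPC469, 650.2 in KPC630, 554 in KPC180, 538 in KPC850, 379 in KPC142 and 292 in KPC490. Col4a2 stood at 468, 454, 290.1, 328, 307 and 164 CPM in the same order. Both genes were highest in KPC469 and KPC630 and lowest in KPC490. They overlap on opposite strands, so some reads may be split between them. The highest and the lowest line differed 2.47-fold for Col4a1 (2.39 to 2.55) and 2.85-fold for Col4a2 (2.73 to 2.97). KPC469 exceeded KPC630 1.11-fold (1.08 to 1.14) for Col4a1, while for Col4a2 these lines did not differ beyond counting error. The level per kilobase of Col4a1 over that of Col4a2 ran from 1.20 in KPC142 (1.16 to 1.25) to 1.86 in KPC180 (1.80 to 1.93), so the balance of the chains also shifted between lines. The genes lie on chromosome 8, whose expressed genes had a median difference from the middle of the lines of 0.34 log2 units for KPC180, 0.23 for KPC142, 0.19 for KPC469 and between -0.21 and -0.25 in KPC490, KPC630 and KPC850. The part of these chromosome levels in the type IV values was not tested.

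Col4a3, Col4a4 and Col4a5 encode the chains of a second type IV trimer, known best from the basement membrane of the kidney glomerulus. All 3 were highest in KPC469 by a wide margin. Col4a3 had 8.06 CPM there (148 counts) and 0.213 to 0.485 in the other lines (4 to 8 counts), 16.6-fold above the next line (8.21 to 39.2). Col4a4 had 6.10 CPM in KPC469 and 0.350 to 0.813 elsewhere, 7.50-fold above the next (4.29 to 14.2). Col4a5 had 108 CPM in KPC469, 21.3 in KPC850, 18.3 in KPC142, 13.2 in KPC490, 12.5 in KPC630 and 6.92 in KPC180, 5.09-fold above the next (4.55 to 5.71). Among the 5 other lines the highest exceeded the lowest by no more than counting error for Col4a3 (2.28, 0.611 to 10.3) and Col4a4 (2.32, 0.839 to 7.38), whereas for Col4a5 it did so 3.08-fold (2.49 to 3.83). Col4a6, the neighbour of Col4a5 in head-to-head orientation (starts 1343 bases apart) and a chain of another type IV trimer, did not share the pattern: it had 0.327 CPM (6 counts) in KPC469 and was highest in KPC850 at 1.34 CPM.

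Genes beside these loci did not stand out in KPC469. Rhbdd1 and Mff, which flank the Col4a3 and Col4a4 pair (taking genes of 5 CPM or more in the median), were at 56.4 and 79.5 CPM there, within the 37.3 to 85.9 and 60.0 to 91.1 CPM of the other lines. Atg4a and Nxt2, beside Col4a5, were at 11.7 and 15.8 CPM, also within the range of the others. The median of chromosome 1 genes in KPC469 was 0.05 log2 units and that of chromosome X 0.20, against 4.54, 3.53 and 2.79 for Col4a3, Col4a4 and Col4a5. A gene that overlaps Col4a3 on the opposite strand, C430014B12Rik, reached 2.51 CPM in KPC469 and had at least 1.38 in every line.

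Col18a1 encodes a collagen chain of the basement membrane that carries heparan sulphate and whose end is released as endostatin. It stood at 419 CPM in KPC850, 350.1 in KPC180, 345 in KPC490, 229.6 in KPC630, 192 in KPC142 and 116 in KPC469. KPC469, the highest line for Col4a1 and Col4a2, was thus the lowest for Col18a1, 3.60-fold below KPC850 (3.43 to 3.78). KPC490, lowest for both type IV genes, was among the 3 highest, while KPC142 was second lowest for Col18a1 and for Col4a1. KPC180 and KPC490 did not differ beyond counting error, with a ratio of 1.01 (0.978 to 1.05). Slc19a1 overlaps it on the opposite strand, at 22.3 to 52.0 CPM.

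Col7a1 encodes the anchoring fibrils that tie the basement membrane to the stroma. It stood at 41.7 CPM in KPC630, 21.6 in KPC490, 10.3 in KPC180, 5.87 in KPC142, 2.62 in KPC850 and 1.42 in KPC469. Every line differed from the next beyond counting error, by 1.76-fold to 2.24-fold, with 29.4-fold between the ends (19.9 to 45.3). Col15a1, a close relative of Col18a1, stayed at 0.218 to 0.789 CPM.

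Among fibrillar chains, Col5a1 and Col27a1 carried nearly all the counts. Col5a1 had most of them in KPC469 and KPC630, and both genes were high in KPC180. Col5a1 encodes the chain of type V collagen that nucleates fibrils. It stood at 123 CPM in KPC469, 90.9 in KPC630 and 72.2 in KPC180, against 17.6 in KPC490, 13.4 in KPC142 and 3.32 in KPC850. The largest steps lay between KPC180 and KPC490, 4.10-fold (3.61 to 4.67), and below KPC142. KPC469 exceeded KPC850 37.0-fold (28.5 to 49.1), and KPC850 was 4.04-fold below the next line (3.01 to 5.50). Col27a1, a fibrillar chain best known from cartilage, stood at 106 CPM in KPC180 and at 19.5 in KPC630, 15.4 in KPC142, 11.7 in KPC490, 10.8 in KPC850 and 3.49 in KPC469. KPC180 was alone at the top, 5.42-fold above the next (4.84 to 6.09), and KPC469, highest for Col5a1, was lowest. Beside Col27a1 on chromosome 4, Ambp was at 5.95 CPM and Atp6v1g1 at 111 CPM in KPC180, both within the range of the other lines, and the chromosome median there was -0.05 log2 units.

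Col1a1 was the third fibrillar gene with a mean above 1 CPM, at 2.66 CPM in KPC630 (50 counts), 1.96 in KPC469, 0.933 in KPC850, 0.425 in KPC180, 0.300 in KPC142 and 0.232 in KPC490 (4 counts). KPC630 and KPC469 did not differ beyond counting error, with a ratio of 1.36 (0.867 to 2.14). Of the 8 other fibrillar genes, Col11a1 reached 1.21 CPM in KPC180 and Col11a2 1.45 CPM in KPC490; the rest had 5 counts or fewer in every line.

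Among network chains, Col6a1 and Col6a2 were low together in 1 line. They encode the first and second chains of type VI collagen, the beaded filaments found beside many basement membranes. Col6a1 stood at 77.4 CPM in KPC850, 72.3 in KPC180, 53.3 in KPC142, 50.5 in KPC469, 45.3 in KPC630 and 4.12 in KPC490 (71 counts). Col6a2 stood at 22.5 CPM in KPC469, 20.6 in KPC180, 16.3 in KPC850, 16.1 in KPC142, 10.5 in KPC630 and 2.15 in KPC490 (37 counts). KPC490 lay below the next line 11.0-fold (8.62 to 14.2) for Col6a1 and 4.91-fold (3.44 to 7.17) for Col6a2, while the 5 other lines stayed between 45.3 and 77.4 CPM and between 10.5 and 22.5 CPM. The neighbouring genes were not low in that line: Lss was at 226 CPM in KPC490, above the 33.5 to 179 elsewhere, and Pcbp3 at 9.35, within the 0.490 to 9.80 of the other lines. The chromosome 10 median in KPC490 was 0.33 log2 units, in the direction opposite to the -3.62 and -2.85 of Col6a1 and Col6a2. Col18a1, on the same chromosome, was at 345 CPM there.

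Col8a1 encodes a chain of the short network collagen of type VIII. It stood at 38.8 CPM in KPC469, 12.7 in KPC630, 6.24 in KPC850, 2.64 in KPC142, 2.09 in KPC490 and 1.15 in KPC180, 33.7-fold between the ends (21.4 to 56.3). KPC142 and KPC490 did not differ beyond counting error. Col10a1, a chain of hypertrophic cartilage, and Col6a4, Col6a5 and Col6a6 had at most 2 counts in any line.

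Of the fibril-associated chains, Col12a1 had the widest range of all 16 genes. Type XII collagen binds along fibrils of type I. Col12a1 stood at 24.9 CPM in KPC469 (457 counts), 5.75 in KPC630, 1.02 in KPC142, 0.523 in KPC490, 0.425 in KPC180 and 0.233 in KPC850 (4 counts). KPC469 was 4.33-fold above KPC630 (3.50 to 5.39) and 107-fold above KPC850 (41.4 to 394), and without KPC469 the highest line, KPC630, was still 24.7-fold above KPC850 (9.36 to 92.1). On chromosome 9 in KPC469, Slc17a5 was at 16.1 CPM against 10.8 to 15.4 elsewhere, and Cox7a2 at 30.3 against 41.3 to 78.3. Col16a1, which binds at the surface of fibrils and cells, was high in KPC630 alone, at 5.06 CPM against 0.350 to 0.719 in the other lines, 7.03-fold above the next (3.84 to 14.1). Its neighbours Ptp4a2 and Pef1 were at 382 and 44.9 CPM in KPC630, within the range of the others, and the chromosome median was 0.03. Col20a1 ran from 0.291 CPM in KPC850 to 2.28 in KPC142, 7.81-fold (3.07 to 25.4), although no neighbouring lines differed beyond counting error. BX649560.1, which overlaps Col20a1 on the same strand, reached 5.64 CPM, so the 2 may share reads. The 6 other fibril-associated genes had 5 counts or fewer in every line.

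The transmembrane chains were nearly silent in every line. Col17a1, a hemidesmosome chain of basal epithelial cells, had at most 7 counts (0.381 CPM, KPC469). Col13a1, Col23a1 and Col25a1 had at most 3 counts.

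Chains that assemble together were unequally expressed for most trimers. Col4a1 and Col4a2 were both high in every line. For type V, Col5a2 had 0 to 2 counts and Col5a3 at most 1 where Col5a1 had 57 to 2259. In KPC469 the level per kilobase of Col5a1 over Col5a2 was 1780 (319 to 70352), and in KPC180, with 0 counts of Col5a2, it was at least 313. For type VI, the first 2 chains are known to need another, from Col6a3 or its relatives. Col6a3 had 26 counts at most (1.58 CPM, KPC180), and Col6a1 over Col6a3 per kilobase ran from 87.7 in KPC142 (59.0 to 136) to 818 in KPC850 (319 to 3006), with at least 58.3 in KPC490. Col6a1 was set beside Col6a3 after the values were seen. Col6a1 over Col6a2 stayed between 2.30 in KPC490 and 5.70 in KPC850.

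Type VIII and the X-linked type IV chains showed a like imbalance. Col8a2 had at most 1 count where Col8a1 had 19 to 713, and in KPC630 the level per kilobase of Col8a1 was at least 67.6 times that of Col8a2. Col4a5 exceeded Col4a6 between 16.1-fold per kilobase in KPC850 (10.6 to 25.8) and 337-fold in KPC469 (155 to 919). For type I, Col1a1 over Col1a2 was 45.1 in KPC630 (7.73 to 1816), with 50 counts and 1 count. In KPC180, with 7 and 3 counts, it was 2.10 (0.480 to 12.6), which includes 1. KPC142 and KPC490 had 5 and 4 counts of Col1a1 and 0 of Col1a2, ratios of at least 1.50 and 1.20. Col4a3 and Col4a4 stood closer to each other, at 148 and 112 counts in KPC469, a ratio of 1.56 per kilobase (1.21 to 2.01). Col4a5, the other chain of their trimer, was far above both in KPC469. It had 16.6 CPM per kilobase there, against 0.943 for Col4a3 and 0.604 for Col4a4.

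**Figure D4:**
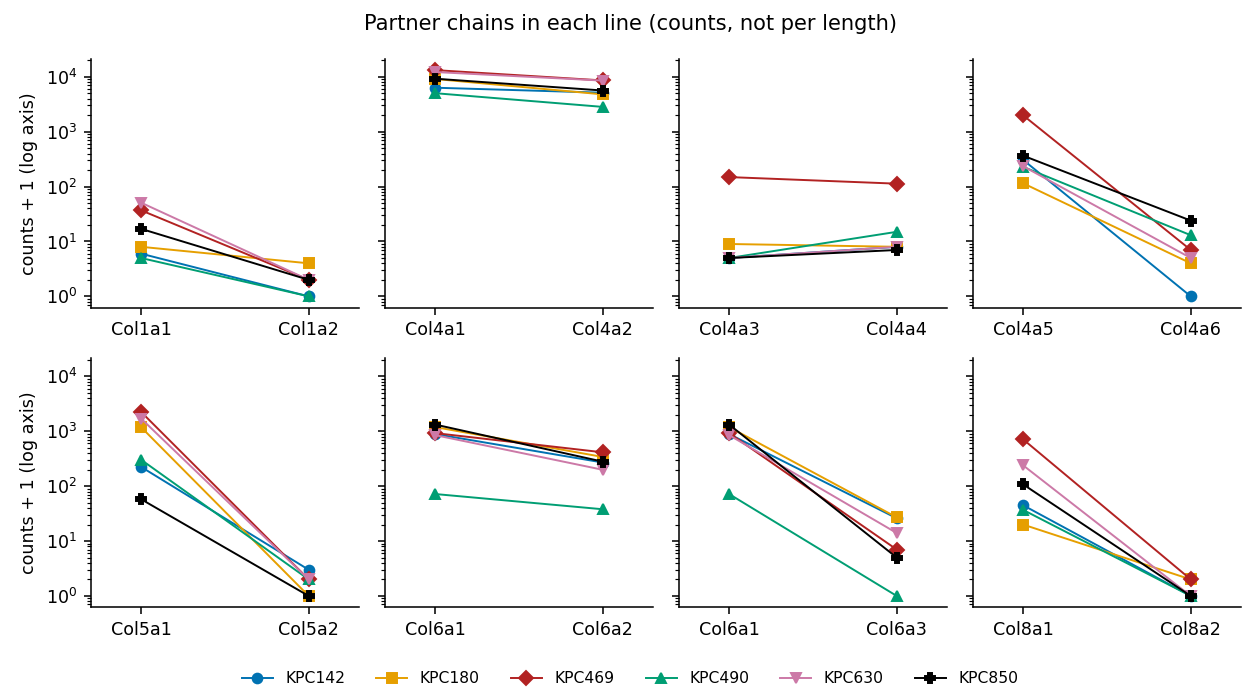
Counts plus 1 (vertical log axes, not adjusted for length) of 2 chains that can share a trimer, 1 panel per pair with a point for each chain in each cell line. Col4a1 with Col4a2 and Col6a1 with Col6a2 hold 37 to 13233 counts in all lines, while Col5a2, Col8a2, Col1a2 and Col6a3 lie at 26 counts or fewer beside partners of up to 2259 counts.

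Genes that make and handle collagen were taken as 5 lists. Of 18 genes for folding and modification of chains, 17 had a mean of at least 1 CPM and 8 of these differed at least 4-fold (20.7% of all genes at that level); without KPC469 the count was 6 of 17 (16.5% of all genes). P4hb, a subunit of prolyl 4-hydroxylase named after its values were seen, reached 1611 CPM in KPC469. It was not among the 8, at 2.91-fold between KPC469 and KPC180 (2.84 to 2.98). The prolyl 3-hydroxylase genes P3h3 and P3h2 were also highest there, at 17.3 and 9.21 CPM, and lowest in KPC850, at 0.291 and 0.874. P4ha3, an alpha subunit of prolyl 4-hydroxylase, was highest in KPC469 as well, at 18.8 CPM against 2.15 to 8.07 elsewhere. Another alpha subunit, P4ha2, went the other way, at 4.52 CPM in KPC469 and 47.9 in KPC630, 10.6-fold (8.46 to 13.4). Serpinh1, also among the 8, was lowest in KPC469 too, at 42.3 CPM against 66.1 to 229 elsewhere. Of the rest of the 8, Fkbp10 was highest in KPC469 at 134 CPM, Plod1 in KPC142 and Plod2 in KPC490. Serpinh1, Fkbp10, Plod1 and Plod2 were likewise named after their values were seen.

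Of 12 genes found for export and propeptide removal, 9 had a mean of at least 1 CPM and 3 of these differed at least 4-fold, again beside 20.7% of all genes. Adamts2 and Adamts14 passed the filter through KPC180 only, and 1 of 7 differed when the 5 lines other than the highest had to reach that mean (18.5% of all genes). Adamts2 and Adamts14, which remove the amino-terminal propeptide of fibrillar procollagens, were both highest in KPC180, the line with the largest fibrillar sum. Adamts2 had 41.1 CPM there, 0.539 in KPC142 and 0 counts elsewhere, at least 252-fold above KPC469. Adamts14 had 6.19 CPM in KPC180 and at most 1.80 elsewhere. The fibrillar sum of KPC180 was led by Col27a1 at 106 CPM, while Col5a1 was higher in KPC469 and KPC630. A link of Adamts2 and Adamts14 to the fibrillar chains was not tested. Pcolce, an enhancer of carboxy-terminal propeptide removal, ran from 38.8 CPM in KPC630 to 181 in KPC850. Bmp1, the protease it assists, ran from 17.0 in KPC142 to 62.6 in KPC180.

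All 4 crosslinking genes with a mean of at least 1 CPM, of 6 listed, differed at least 4-fold (20.7% of all genes), and 3 of 4 did so without KPC469 (16.5%). The transglutaminase gene Tgm2 had 94.3 CPM in KPC469 and 8.60 in KPC490. The lysyl oxidase relatives differed in their highest line: Loxl2 had 54.3 CPM in KPC630, Loxl3 13.6 in KPC469 and Loxl4 148 in KPC142. Lox itself had 0 counts in every line. Summed over the list, crosslinking genes were lowest in KPC490, at 55.0 CPM, and highest in KPC142, at 203. KPC490 was also lowest in summed collagen, at 882 CPM, but KPC142 came next at 1012. KPC469, highest in summed collagen at 1699 CPM, had 149 CPM of crosslinking genes, below KPC142, KPC850 and KPC630.

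Of 14 collagen receptor genes, 9 had a mean of at least 1 CPM and 5 of these differed at least 4-fold (20.7% of all genes), but without KPC469 only 1 of 9 did (16.5%). Itga1 and Itga2, the alpha subunits of the collagen-binding integrins of epithelium, were both lowest in KPC469. Itga2 had 33.4 CPM there and 239 to 361 in the other lines, and Itga1 had 23.8 against 42.4 to 141. Itga10, a collagen receptor subunit best known from chondrocytes, was instead highest in KPC469 at 11.5 CPM, against 0.641 to 2.16. Antxr1, a receptor that binds type VI collagen, was low in KPC142 alone, at 0.779 CPM against 14.6 to 29.6. Ddr1, a receptor kinase for collagen, varied less, from 77.5 CPM in KPC142 to 150.0 in KPC180; it was chosen after its values were seen.

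Of 16 genes for collagen-degrading enzymes, 8 had a mean of at least 1 CPM and 4 of these differed at least 4-fold (20.7% of all genes). Mmp3 passed the filter through KPC469 only, and without that line the count was 3 of 7 (16.5%). Mmp14, a membrane-bound collagenase, had 209 CPM in KPC630 and 31.9 in KPC142. Mmp13 ran from 2.98 CPM in KPC630 to 17.4 in KPC180. The stromelysin genes had most counts in KPC180 and KPC469: Mmp10 stood at 24.9 and 5.88 CPM in them and at 0.419 or less elsewhere, and Mmp3 at 0.668 and 7.08 CPM and at 0.160 or less elsewhere. Mmp1a, Mmp1b and Mmp8 had 0 counts in every line.

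Markers of other cells were checked beside these values. All 7 epithelial markers had a mean of at least 1 CPM, with Krt8 at up to 4180. Their sum was 12048 CPM in KPC850, 11192 in KPC630, 9054 in KPC142, 7172 in KPC180, 7114 in KPC490 and 2858 in KPC469. KPC469 had the most collagen RNA and KPC630 came next, while KPC490 had the least. Krt7, Krt8 and Krt18 were lowest in KPC469, but Cdh1 was lowest in KPC490 (298 CPM, against 399.8 in KPC469), Krt19 and Epcam in KPC180 and Muc1 in KPC142; Epcam in KPC469 was 4.58 CPM, between 0.243 and 10.5 elsewhere. Of 13 markers of fibroblasts and stellate cells, 9 stayed under 1 CPM in every line, and Dcn, Lum, Thy1 and C7 had 0 counts in all. Their sum was 23.1 CPM in KPC630, 21.6 of it Acta2, and 10.3 in KPC850, 7.68 in KPC469, 6.13 in KPC180, 1.50 in KPC142 and 0.987 in KPC490. Pdgfrb stood at 3.05 CPM (56 counts) in KPC469 and at 1 count or fewer in each other line, and Pdgfra at 2.23 CPM in KPC469, 2.18 in KPC180 and at most 1.12 elsewhere. Cspg4 was highest in KPC850, at 9.09 CPM. The 6 endothelial markers reached 2.50 CPM (Kdr, KPC630) and the 6 immune markers 0.659 CPM (Csf1r, KPC142), with Emcn and Adgre1 at 0 counts. The part of the epithelial and fibroblast sums in the collagen values was not tested.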

How the data were processed

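Total RNA of 6 cell lines was made into stranded, poly(A)-selected libraries, per the labels' protocols. The values are expected counts per gene, deposited by the authors in 1 table. Per the submitters' processing notes, Trimmomatic 0.36, STAR 2.7.10b, RSEM 1.3.3 and the build GRCm39 were used; the annotation and the strand setting are not given in the sources used here, so reads of overlapping genes may be split between them.

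Expected counts were rounded, and edgeR 4.0.16 in R 4.3.3 gave TMM factors (0.986 to 1.013). CPM, log2 CPM with a prior count of 2, and ratios with exact conditional binomial 95% intervals were computed in Python 3.11.15 with scipy 1.17.1. The ratio code was checked on simulated data. Symbols, lengths, gene order and coding frames came from GENCODE vM21, built on GRCm38, which named 52029 of the 56953 genes; no coordinate of GRCm39 is printed.

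The labels place no line in a low or high infiltration class, so all 6 samples are without a group and no lines or groups were tested against each other; an outlier criterion (Dixon's) was applied to the 16 genes over the 6 lines, for the closing section only. Intervals cover counting error, not the spread between cultures. Every collagen chain gene with a mean of at least 1 CPM was named, with up to 4 genes of largest range from each pathway list, the top gene of each marker list, partner chains, and the nearest genes of at least 5 CPM beside a member standing 4-fold from the next line. The members and lists were chosen with earlier results of these data known. Alternatives covered the normalization, filter, prior count, fold threshold, rounding, transcript length and each line left out.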

Additional observations from a re-analysis of the deposited data

Results flagged for a closer look

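For 5 of the 16 collagen chain genes examined, 1 line lay apart from the other 5 by more than 0.625 of the whole range on the log2 CPM scale, which is the 95% critical value for 6 samples. Chance alone gives this in about 1 of 20 groups of like samples, but the criterion is made for replicates, and these are 6 different lines with 1 library each, so it serves here as a description. Col4a3, Col4a4 and Col16a1 had entered the 16 genes through the line that stood apart only, so 3 of the 5 cases are in part set by the filter.

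KPC469 was the high line for Col4a3, at 8.06 CPM, and for Col4a4, at 6.10 CPM. KPC630 was the high line for Col16a1, at 5.06 CPM. KPC490 was the low line for Col6a1, at 4.12 CPM, and for Col6a2, at 2.15 CPM.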

How the results depend on the processing

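Of 16 collagen chain genes, 13 differed at least 4-fold between lines, beside 20.7% of all genes. The count was 8 of 11 with at least 10 CPM required in a line (15.4% of all genes) and 7 of 10 with filterByExpr (13.2%). Fewer members pass these filters. A filter on the 5 lines other than the highest, chosen after seeing the data, gave 9 of 12 (18.5%). The median range of 3.84 log2 units became 1.73 over all 41 members with a count, most of which had few counts. When single lines were left out, the count ran from 9 to 13, and the share of all genes from 16.5% to 19.3%. The median range then ran from 3.27 to 3.89 and the ratio of summed collagen CPM from 1.68 to 1.93. Leaving out KPC469 gave 9 of 13 (16.5% of all genes), 3.27 and 1.8, and leaving out KPC490 gave the ratio of 1.68. With RLE factors, plain library totals, a prior count of 0.5 or 5, or unrounded counts, the ranges of all 16 genes stayed within their counting intervals. The 6 genes with 1 line 4-fold above the next (1.88% of all genes) became 3 with that added filter (0.919%) and 3 without KPC469 (1.57%), also chosen after seeing the data. Levels per kilobase moved for all 16 genes with the median transcript length. No paired analysis was possible because the lines have no group and no replicate numbers. Depth limits the 19 members with at most 3 counts in every library, whose differences were not detectable.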
